A study of Xenopus laevis with 25 samples.

Results

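The genes described here are the nuclear genes for the 5 complexes of oxidative phosphorylation. They were chosen by symbol: every symbol beginning with nduf, uqcr, atp5 or cox4 to cox8, and the genes sdha, sdhb, sdhc, sdhd and cyc1. This gave 76 symbols on 89 transcripts, of 13563 symbols and 22891 transcripts in all. Complex I accounted for 37 of them, complex II for 4, complex III for 6, complex IV for 14 and complex V for 15, and cyc1 was not analysed here. Of the 76, 66 encode subunits and 10 encode assembly or regulatory factors. The factors are ndufaf1 to ndufaf7 for complex I, cox7a2l, a factor of respiratory supercomplexes, and the ATP synthase factors atp5s and atp5if1. The gene ndufa4 was counted with complex IV, of which its product is now regarded as a subunit.

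Complexes I and II pass electrons from NADH and succinate to ubiquinone, complex III passes them on to cytochrome c, and complex IV passes them to oxygen. Complexes I, III and IV pump protons across the inner mitochondrial membrane, and complex V, the ATP synthase, uses the gradient to make ATP. Most subunits are nuclear-encoded and imported, while a few core subunits of complexes I, III, IV and V are encoded by mitochondrial DNA, so that assembly needs both genomes. Frog embryos inherit a large store of maternal mitochondria.

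Poly(A)-selected RNA of Xenopus embryos was sequenced in 15 libraries from embryos injected with an RNF20 morpholino, 3 at each of 12, 13, 14, 15 and 16 hours post fertilization (hpf), and in 10 wild-type libraries, 2 at each hour. RNF20 is a ubiquitin ligase for histone H2B, and a morpholino is an antisense oligomer that blocks translation or splicing of its target. The series title ties the H2B mark to cilia and the heart, so the comparison here is one of a general metabolic gene set within that study. The labels name no control injection for the wild type and give neither the number of embryos pooled nor whether replicates are separate clutches, so p-values measure only the spread among these samples. The embryos are labelled Xenopus laevis while the transcript names are those of Xenopus tropicalis. In the RefSeq annotation of Xenopus laevis v10.1, 45 of the 76 genes have both an L and an S copy, and reads of both copies would share a transcript here.

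Library totals ran from 12757711 to 36150636 estimated counts. RNA of rnf20 itself had an average log2 change of 0.32 ± 0.09 in the morpholino libraries (SE, edgeR adjusted p = 0.0153), which checks neither label, since a morpholino acts on translation or splicing. The 5 libraries of morpholino replicate 3 stood apart, most of all the one at 16 hpf, so the main counts and the values of some members are also given without replicate 3. Levels between genes are compared in TPM, which is per transcript length. Changes of a gene are given in CPM, library-scaled counts after TMM scaling, a correction for the make-up of each library. In whole embryos, fewer cells of a type and less RNA per cell cannot be told apart.

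The respiratory chain was strongly and unevenly expressed. The mean level over all 25 libraries had a median of 84.4 TPM over the 76 genes. It ran from 0.055 TPM for cox6a2, the heart and muscle isoform of cytochrome oxidase subunit VIa in mammals, to 1318 TPM for cox6b1, a small subunit on the intermembrane side of complex IV. That of cox6b1 rests on an effective length of 57.1 bases, the shortest of the members tested (the next was 213), and without length scaling cox6b1 had 37.1 to 50.6 CPM in wild type, below uqcrfs1 with 264 to 363 CPM. The 10 highest genes held 49.4% of the summed TPM, and 12 exceeded 300 TPM. After cox6b1 came uqcrfs1, the Rieske iron-sulfur protein of complex III, at 786 TPM, and atp5mc3, which encodes the proton-carrying c subunit of ATP synthase, at 652 TPM. The complex IV subunit cox7a2 followed at 522 TPM and atp5f1b, the catalytic beta subunit of ATP synthase, at 501 TPM. In wild type, cox6b1 averaged 1242 ± 94.7 TPM and uqcrfs1 701 ± 60.5 TPM (SD, n = 10), and stood apart from each other by more than the sum of their SDs. Neither uqcrfs1 and atp5mc3, at 663 ± 52.1 TPM, nor cox7a2, at 499.8 ± 35.9 TPM, and atp5f1b, at 490.4 ± 21.9 TPM, did so. Of the 75 pairs of neighbours in the order of levels, 14 differed in wild type by more than the sum of their SDs.

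By complex, the median level was 363 TPM for complex IV, 151 TPM for complex V, 137 TPM for complex III, 65.9 TPM for complex I and 30.5 TPM for complex II. All 4 genes of complex II were below the median of the members: sdhd, a membrane anchor, had 36.1 TPM, and sdhc, the other anchor, 9.71 TPM. The highest of complex I were ndufb9, a subunit of its membrane arm, at 262 TPM and ndufab1, the mitochondrial acyl carrier protein, at 164 TPM. Isoform pairs were very unequal. The main cox4 isoform, cox4i1, had 375 TPM and cox4i2, a hypoxia-responsive isoform in mammals, 0.229 TPM. Of the genes for cox5b, cox5b.1 had 212 TPM and cox5b.2 11.7 TPM. The low genes cox4i2, cox6a2 and the complex I assembly factor ndufaf2 did not pass the filter on low counts, which left 73 members among 14151 features tested.

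The members took 0.299% to 0.695% of counts in morpholino libraries and 0.415% to 0.492% in wild-type libraries. Their summed level was 11598 to 12500 TPM in morpholino replicates 1 and 2 and 11070 to 12541 TPM in wild type, so these ranges overlapped. In morpholino replicate 3 it was 8056 to 10305 TPM at 12 to 15 hpf, below all the other libraries, and 16492 TPM at 16 hpf, above them all. The log2 difference of the arms in summed TPM was -0.03, against a within-group SD of 0.15. It was -0.14 for complex I, -0.18 for complex II, 0.13 for complex III, 0.02 for complex IV and -0.07 for complex V. The within-group SD was 0.06 for complex II and 0.13 to 0.18 for the others. The summed level of complex II was 93.6 to 102 TPM in morpholino and 105 and 108 TPM in wild type at 12 hpf, and 94.5 to 104 TPM in morpholino and 123 and 125 TPM in wild type at 15 hpf. It was below both wild-type libraries in every morpholino library at 12, 14, 15 and 16 hpf, and the arms overlapped at 13 hpf. Without replicate 3 the differences from complex I to complex V were -0.09, -0.14, 0.09, 0.09 and 0.02. The directions with all libraries depended on the scale, since in TMM-scaled CPM those differences were 0.05, 0.08, 0.29, 0.16 and 0.14 from complex I to complex V. In TMM-scaled CPM without replicate 3 they were 0.00099, 0.0069, 0.14, 0.12 and 0.12.

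**Figure D1:**
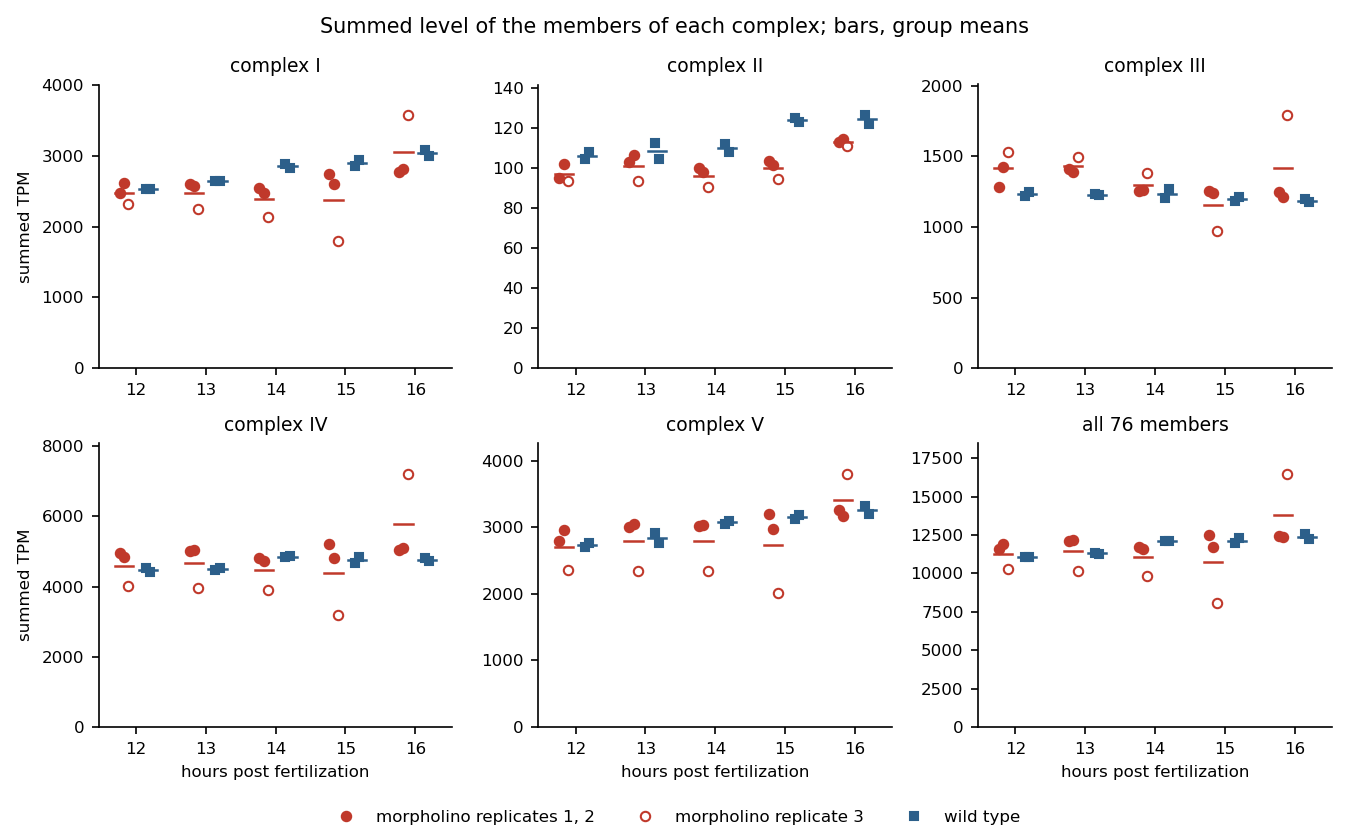
Summed TPM (vertical axes, linear, from 0) of the members of each respiratory complex at each hour (horizontal axes), with 3 morpholino libraries at the left and 2 wild-type libraries at the right of each hour and bars at the group means. Morpholino replicate 3, the open circles, held 8056 to 10305 TPM in all at 12 to 15 hpf and 16492 TPM at 16 hpf, while the other morpholino libraries lay at 11598 to 12500 TPM.

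Averaged over the 5 hours and with all 25 libraries, 9 members differed between the arms, and the 4 that fell were all of complex I; without replicate 3, 28 differed and those that fell were not all of complex I. Of 73 members, 5 rose and 4 fell in the morpholino libraries (12.3%), where 34.6% of all features tested were called, 17.2% higher and 17.4% lower (edgeR quasi-likelihood test, adjusted p under 0.05). The fit took the 25 libraries as independent. Same-numbered libraries of an arm mostly deviated together across the hours, so p-values for the average can be too small. The members' median log2 change was 0.10, against -0.01 over all features, and 50 were positive and 23 negative. That median moved with single libraries of replicate 3. Without replicate 3 at 16 hpf it was -0.0029, against -0.0086 over all features, and without replicate 3 at 15 hpf it was 0.135, against -0.0099. Without replicate 3 at all hours it was 0.05, against -0.01. Of the 36 members of complex I tested, 4 fell and 0 rose (edgeR). The unadjusted p was under 0.05 for 7 of them, 3 of these higher, and for 6627 of the 14151 features tested. DESeq2 called 7 members higher and 4 lower in all, beside 39.7% of all features. These were the 9 of edgeR with ndufs8 of complex I and uqcrq of complex III as well. Without replicate 3 complex I had 5 higher and 8 lower. With all 25 libraries 1 member each rose in complexes II, III and IV, and 2 in complex V. All 12 members of complex IV tested had a positive value, from 0.08 to 0.47, of which 1 was called. Without TMM scaling the split was 3 higher and 12 lower, where 32.5% of all features were called, with the median of all features at -0.17 and that of the members at -0.08.

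**Figure D2:**
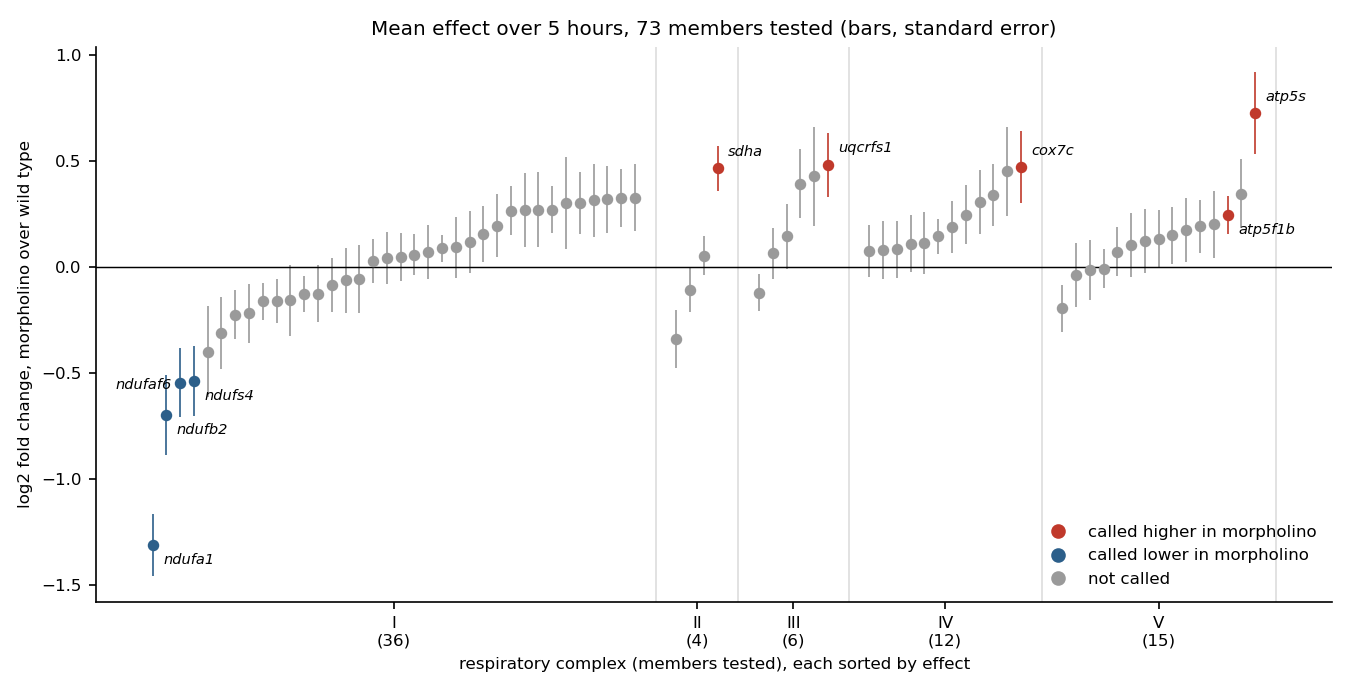
Log2 fold change of morpholino over wild type averaged over the 5 hours (vertical axis, bars are SE) for the 73 members tested, grouped by complex and sorted by effect. The 4 members called lower all lie in complex I, with ndufa1 at -1.31 farthest from 0, and the 5 called higher lie in complexes II to V.

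The largest change was that of ndufa1, which encodes a small single-pass membrane subunit of complex I that is needed for its assembly in mammals. It had 6.3, 9.12 and 5.91 CPM in morpholino libraries and 15.1 and 14.5 CPM in wild type at 12 hpf. At 13 hpf it had 6.43, 7.6 and 6.91 CPM in morpholino and 17.2 and 15 CPM in wild type, and at 14 hpf 5.15, 7.29 and 5.71 CPM in morpholino and 16.6 and 17.9 CPM in wild type. At 15 hpf it had 5.11, 6.51 and 3.69 CPM in morpholino and 16.1 and 17.2 CPM in wild type, and at 16 hpf 4.38, 7 and 13.8 CPM in morpholino and 17.4 and 17.8 CPM in wild type. All 15 morpholino libraries thus lay below all 10 wild-type libraries, and the closest approach was morpholino replicate 3 at 16 hpf. The log2 change was -1.31 ± 0.15 (SE, adjusted p = 1.21e-05 by edgeR), with mean levels of 37.4 ± 8.39 TPM in morpholino (SD, n = 15) and 107 ± 10.8 TPM in wild type (SD, n = 10). No other member had arms that did not overlap, while 1.61% of all features did. Its counts, 80 to 427 per library, sit on a single transcript. The value was -1.35 without morpholino replicate 3, and over all alternatives it ran from -1.50 to -1.25 with adjusted p at or below 4.97e-04. In the authors' deposited table, turned to log2 morpholino over wild type, its change was -1.21, -1.52 and -1.71 at 13, 14 and 15 hpf with q-values of 9.8e-04, 1.89e-04 and 3.7e-05, and its q-values were 0.0526 at 12 hpf and 0.958 at 16 hpf.

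The other 3 members that fell had arms that overlapped over the course but lay apart at single hours. The gene ndufb2, for a subunit of the membrane arm of complex I, had 2.08, 5.1 and 17.4 CPM as lowest, median and highest in morpholino and 5.44, 8.76 and 12.5 CPM in wild type. It was lower than wild type in every morpholino library at 12, 13, 14 and 15 hpf, while at 16 hpf replicate 3 was above both wild-type libraries. It fell by 0.70 ± 0.19 (SE, edgeR adjusted p = 0.00999). The gene ndufs4, for an iron-sulfur-protein-fraction subunit whose loss in humans causes Leigh syndrome, had 2.73, 4.79 and 13.1 CPM in morpholino and 4.07, 7.55 and 11.3 CPM in wild type, and fell by 0.54 ± 0.16 (SE, edgeR adjusted p = 0.0191). The ndufs4 call ended without replicate 1 of the wild type at 12 hpf (adjusted p = 0.0535). The complex I assembly factor ndufaf6 had 1.22, 3.02 and 5.24 CPM in morpholino and 2.41, 4.13 and 5.7 CPM in wild type, and fell by 0.55 ± 0.16 (SE, edgeR adjusted p = 0.0169). Both ndufs4 and ndufaf6 were below both wild-type libraries in every morpholino library at 14 and 15 hpf, and ndufs4 also at 13 hpf.

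Of complex I as a whole, 7 nuclear-encoded core subunits, which form the electron-transferring arm, were tested and 0 were called (edgeR; 1 had an unadjusted p under 0.05). Their median log2 change was -0.09, with ndufv2 at -0.22 and ndufs8 at 0.27 as the extremes. Without replicate 3, 1 core subunit rose and 3 fell, among them ndufs8 at 0.21 (edgeR adjusted p = 7.76e-04) and ndufv2 at -0.17 (adjusted p = 0.00402). Of 23 supernumerary subunits, 3 fell and 0 rose with a median of 0.10, and without replicate 3, 3 fell and 3 rose with a median of -0.01. The most abundant members, ndufb9 at 0.33 (adjusted p = 0.111) and ndufab1 at 0.32 (adjusted p = 0.122, edgeR), were not called. The accessory subunit ndufs6, at -0.40 (edgeR adjusted p = 0.152), and the peripheral-arm subunit ndufa5, at -0.06 (adjusted p = 0.770), were not called either. Without replicate 3 the values of ndufb9 and ndufab1 were 0.12 and 0.10 (edgeR adjusted p = 0.0642 and 0.0663). Both genes were called when replicate 1, 2 or 3 of the morpholino arm at 16 hpf was omitted singly.

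In complex II the catalytic subunits sdha and sdhb had values of opposite sign, of which that of sdha was called. The flavoprotein sdha had 24.8, 39 and 52.7 CPM as lowest, median and highest in morpholino and 18.9, 25.4 and 43.6 CPM in wild type. Its morpholino libraries were all above both wild-type libraries at 13, 15 and 16 hpf and overlapped with them at 12 and 14 hpf. It rose by 0.47 ± 0.11 (SE, edgeR adjusted p = 0.00403). The iron-sulfur partner sdhb had 13.4, 18.2 and 61.8 CPM in morpholino and 17.7, 27 and 31.8 CPM in wild type, with all morpholino libraries below both wild-type libraries at 12, 13, 14 and 15 hpf and replicate 3 far above at 16 hpf. Its change of -0.34 ± 0.14 did not pass (edgeR adjusted p = 0.0643), while without replicate 3 it was -0.46 (adjusted p = 6.44e-04). The anchors sdhc, at -0.11 (edgeR adjusted p = 0.443), and sdhd, at 0.05 (adjusted p = 0.664), were not called.

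In complex III, uqcrfs1 had 280, 407 and 946 CPM in morpholino and 264, 311 and 363 CPM in wild type. It was above both wild-type libraries in every morpholino library at 12, 13, 14 and 16 hpf, and rose by 0.48 ± 0.15 (SE, edgeR adjusted p = 0.0217). Without replicate 3 the change was 0.27 (adjusted p = 9.13e-05). Of the small subunits, none was called: uqcrq, which lies next to cytochrome b, had 0.40 (edgeR adjusted p = 0.0679), uqcrh, the hinge protein, 0.43 (adjusted p = 0.152) and uqcr10 0.15 (adjusted p = 0.474). The value for uqcrh rests on 12 to 61 counts per library. Without replicate 3 uqcrq was called, at 0.19 (edgeR adjusted p = 0.0363), and uqcrc1, a core protein of complex III, was called lower, at -0.10 (adjusted p = 0.0411).

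In complex IV, cox7c, a short membrane subunit, had 66, 97 and 336 CPM in morpholino and 73.5, 77.5 and 81.4 CPM in wild type. Of the 15 morpholino libraries 14 were above all 10 wild-type libraries, and the exception was replicate 3 at 15 hpf. It rose by 0.47 ± 0.17 (SE, edgeR adjusted p = 0.0401). Without replicate 3 its arms did not overlap and the change was 0.29 ± 0.04 (adjusted p = 3.45e-05). The other leading members, cox6b1 at 0.34 (edgeR adjusted p = 0.0741), cox7a2 at 0.31 (adjusted p = 0.118) and cox5b.2 at 0.45 (adjusted p = 0.0984), were not called with all libraries. Without replicate 3 cox6b1, at 0.29 (edgeR adjusted p = 3.49e-04), and cox7a2, at 0.23 (adjusted p = 0.00102), were called, and cox5b.2, at 0.43 (adjusted p = 0.0588), was not.

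In complex V, atp5f1b had 500.4, 572 and 976 CPM in morpholino and 469, 506 and 527 CPM in wild type, and 11 of 15 morpholino libraries were above all of the wild type. It rose by 0.25 ± 0.09 (SE, edgeR adjusted p = 0.0424). The coupling factor atp5s had 0.539, 0.94 and 1.54 CPM in morpholino and 0.305, 0.628 and 0.857 CPM in wild type, with 10 of 15 morpholino libraries above all of the wild type. It rose by 0.73 ± 0.19 (SE, edgeR adjusted p = 0.0096), but this rests on 5 to 24 counts per library. The c-subunit gene atp5mc3, at 0.15 (edgeR adjusted p = 0.388), the inhibitor of the synthase's reverse reaction, atp5if1, at 0.35 (adjusted p = 0.102), and the stalk subunit atp5pf, at 0.12 (adjusted p = 0.541), were not called with all libraries. Without replicate 3 atp5if1, at 0.25 (edgeR adjusted p = 0.00647), was called, and atp5pf, at 0.07 (adjusted p = 0.338), was not.

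**Figure D3:**
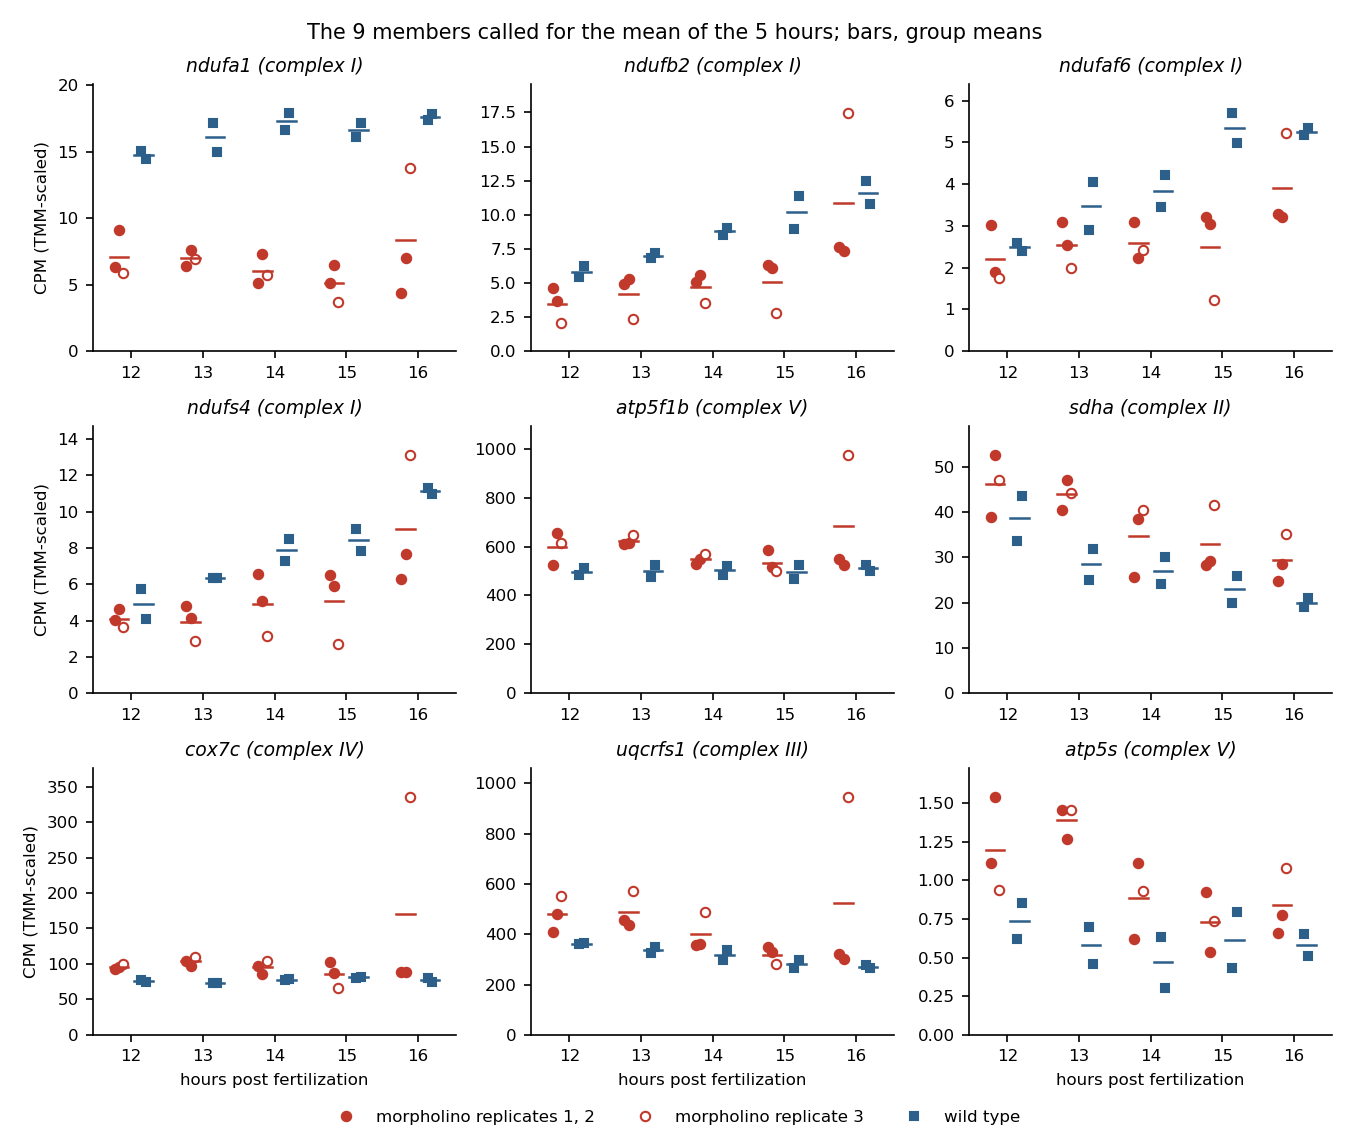
CPM (vertical axes, linear, from 0) of the 9 members called for the average over the 5 hours, by hour, with morpholino libraries left of wild type, open circles for morpholino replicate 3 and bars at the group means. For ndufa1 all morpholino libraries lie between 3.69 and 13.8 CPM and all wild-type libraries between 14.5 and 17.9 CPM, while for uqcrfs1, cox7c and atp5f1b replicate 3 at 16 hpf stands far above the rest.

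The 9 calls were also all made without the 5 libraries of morpholino replicate 3, where 28 members were called, 17 higher and 11 lower (38.4%, against 45.5% of all features). The 11 that were lower were 8 of complex I with sdhb of complex II, uqcrc1 of complex III and atp5mc1 of complex V, and the 17 that were higher were 5 of complex I, 1 of II, 2 of III, 4 of IV and 5 of V. The members' median was then 0.05 and that of all features -0.01. Without replicate 3, 3 members did not overlap between arms (3.01% of all features): ndufa1, cox7c and the assembly factor ndufaf1, which had 5.84 to 7.21 CPM in morpholino and 7.56 to 9.65 CPM in wild type. The ATP synthase c-subunit genes atp5mc3 and atp5mc1 then had opposite signs, with atp5mc3 at 0.17 (edgeR adjusted p = 0.00459) and atp5mc1 at -0.17 (adjusted p = 0.0303). Single libraries, here called the first, the second and the third of an hour by replicate number, also changed the count. Without replicate 1, 2 or 3 of the morpholino arm at 16 hpf it was 19, 19 and 22, where 38.1%, 37.2% and 42% of all features were called. The members called higher numbered 3 when the third morpholino library of 12, 13 or 14 hpf or the first of 15 hpf was omitted. Of all features 30.1%, 29.2%, 28.6% and 34.4% were then called. The atp5f1b call ended without 17 of the 25 libraries, which were all 10 of the wild type, the second and the third morpholino libraries of 12, 13 and 14 hpf and the first of 15 hpf. The cox7c call ended without 16 of the 25, which were all 10 of the wild type, the second and the third morpholino libraries of 12 hpf, the third of 13 and 14 hpf, and the first and second of 15 hpf. Both calls also ended with library totals in place of TMM and with single transcripts in place of symbols.

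At single hours, 0 members were called at 12, 13, 14, 15 or 16 hpf (edgeR), where 0.127%, 0.148%, 0.155%, 0.0989% and 0.311% of all features were called. At an unadjusted p under 0.05 the numbers were 2, 3, 2, 4 and 23 of 73 members, beside 1314, 2235, 1363, 1689 and 1914 of 14151 features (edgeR). DESeq2 called 0, 1, 1, 1 and 0 members. The gene with the smallest p was ndufa1 at every hour, with -1.05, -1.20, -1.51, -1.71 and -1.08 and adjusted p = 0.316, 0.164, 0.0939, 0.0551 and 0.218 (edgeR). The members' median was 0.08, 0.15, -0.09, -0.13 and 0.50 from 12 to 16 hpf, and at 16 hpf 63 of 73 were positive, with all 12 of complex IV and all 15 of complex V among them. Without replicate 3 that median at 16 hpf was -0.02, with 30 positive and 43 negative. The members called were then 4, 13, 3, 2 and 3 at the 5 hours, against 6.25%, 19.9%, 5.39%, 5.47% and 3.88% of all features. Omitting only the third morpholino library of 16 hpf gave 1 member called at each hour, and omitting only the first gave 1 at 14 and 15 hpf. By the authors' deposited table of each hour, 0, 3, 1, 1 and 0 member transcripts had a q-value under 0.05, while 0.834%, 5.82%, 1.06%, 0.603% and 0.0433% of all transcripts had one. Beside ndufa1 these were uqcrfs1 and cox7c at 13 hpf.

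Over the 5 hours 10 members rose in the morpholino arm and 1 fell in both arms, and the direction in the morpholino arm rested on replicate 3. In the morpholino arm 10 members rose and 1 fell (15.1%, against 24.5% of all features, 14.3% rising and 10.2% falling, edgeR), and the members' median slope was 0.10 log2 units per hour, against 0.01. Without replicate 3, 13 rose and 13 fell, with a median slope of -0.0042. In wild type 0 rose and 1 fell (1.37%, against 5.59% of all features, 3.51% rising and 2.08% falling), with a median slope of 0.05. The unadjusted p was under 0.05 for 10 members and for 3458 of the 14151 features, and DESeq2 called 3 members rising and 1 falling. Same-numbered libraries deviated together across the hours in wild type, as did those of the morpholino arm except for 1 pair of hours of replicate 2. With a block per arm and replicate 16 members rose and 1 fell in the morpholino arm (23.3%, against 42.3% of all features), and 6 rose and 1 fell in wild type (9.59%, against 28.1%), with ndufs4, ndufaf6 and ndufs6 among those rising and sdha falling. The difference of the slopes between arms was called for 0 members (edgeR, 0 at an unadjusted p under 0.05, 0 by DESeq2) and for 0 of the 14151 features (574 at an unadjusted p under 0.05). With all libraries the largest differences were 0.16 ± 0.10 for cox6b1 and -0.24 ± 0.16 for uqcrh (SE). The difference was then positive for 54 members and negative for 19, with a median of 0.05. Without replicate 3 it was positive for 6 and negative for 67, with a median of -0.05, and again 0 were called (edgeR). The joint test of a difference between hours likewise called 0 members (edgeR, 0 at an unadjusted p under 0.05, 0 by DESeq2) and 0 features (104 at an unadjusted p under 0.05).

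The steepest rises were in complexes I and II. In the morpholino arm ndufb2 rose by 0.36 ± 0.09 log2 units per hour (edgeR adjusted p = 0.00957), sdhb by 0.31 ± 0.06 (adjusted p = 0.00408) and ndufs4 by 0.26 ± 0.08 (adjusted p = 0.0189). The ndufs4 slope was 0.28 ± 0.09 in wild type (edgeR adjusted p = 0.0753), that of ndufb2 0.25 ± 0.10 (adjusted p = 0.144) and that of sdhb 0.17 ± 0.08 (adjusted p = 0.182). In wild type ndufb2 had 5.44 and 6.21 CPM at 12 hpf and 12.5 and 10.8 CPM at 16 hpf, and ndufs4 5.75 and 4.07 CPM and 11.3 and 10.9 CPM. The other wild-type slopes of that size were 0.28 for ndufaf6 (edgeR adjusted p = 0.0744) and 0.27 for ndufs6 (adjusted p = 0.169).

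The remaining 7 members that rose in the morpholino arm were uqcrc1, a core protein of complex III, cox5b.1 of complex IV, the ATP synthase subunits atp5f1a, atp5pf and atp5pd, and the complex I subunits ndufb6 and ndufa11, with slopes of 0.13 to 0.21 log2 units per hour. Each of these calls could be ended by leaving out a single library, in some cases also one of the wild type. The calls of ndufb6, ndufa11 and atp5pd ended without 19, 18 and 20 of the 25 libraries, that of atp5pf without 7, among them each of the 3 at 12 hpf, and that of atp5f1a without 4, namely the third libraries at 12 and 13 hpf and the first at 15 and 16 hpf. Those of uqcrc1 and cox5b.1 ended when the second or the third library at 12 hpf was omitted, and that of ndufs4 when the third was. The count of rising members was 2 without replicate 3 at 12 hpf and 19 when the third library at 15 hpf or the first or second at 16 hpf was omitted. Omitting the first or second library at 12 hpf, the third at 13 hpf, the first or second at 15 hpf or the third at 16 hpf gave 4 to 6.

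The only member that fell in both arms was sdha. It had 39, 52.7 and 47.1 CPM in morpholino and 33.7 and 43.6 CPM in wild type at 12 hpf, and 24.8, 28.5 and 35.1 CPM in morpholino and 18.9 and 21.1 CPM in wild type at 16 hpf. Its slope was -0.17 ± 0.05 in the morpholino arm (edgeR adjusted p = 0.0159) and -0.22 ± 0.06 log2 units per hour in wild type (adjusted p = 0.0333). The wild-type call ended when any of the 4 wild-type libraries of 12 and 16 hpf was omitted, or the second of 13 hpf or the first of 15 hpf. The morpholino call ended when the second library of 12 hpf or the first of 16 hpf was omitted. Other falling wild-type slopes, -0.24 for cox5b.2, -0.15 for atp5if1 and -0.11 for uqcrfs1, were not called (edgeR adjusted p = 0.206, 0.317 and 0.424). Without replicate 3 of the morpholino arm, which also lowers the spread shared by the arms in the fit, the 26 members called in the morpholino arm were 35.6%, against 54.7% of all features, and in wild type 28 rose and 6 fell (46.6%, against 50.5%). Leaving out only the replicate 3 library at 16 hpf gave 12 falling in the morpholino arm and 8 rising and 3 falling in wild type, and leaving out only that at 15 hpf gave 2 rising in wild type.

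**Figure D4:**
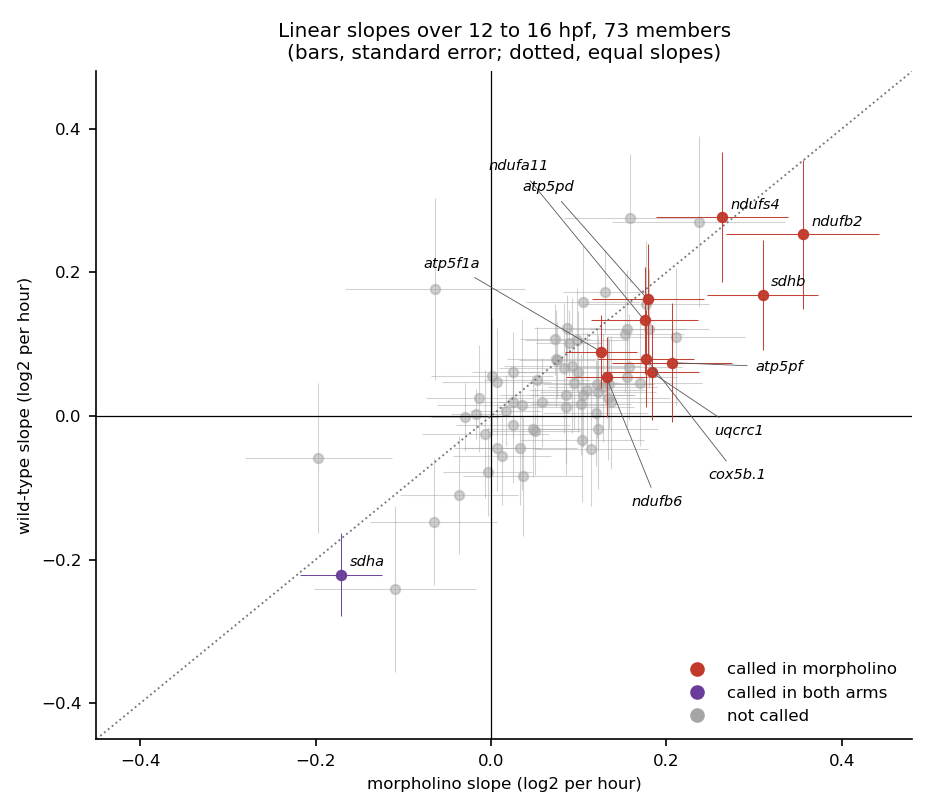
Linear slope over 12 to 16 hpf in log2 units per hour for the 73 members, morpholino on the horizontal and wild type on the vertical axis, with SE bars and a dotted line of equal slopes. The 10 members called rising in the morpholino arm lie to the right of 0, ndufb2 at 0.36 farthest, and sdha is called falling in both arms.

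The morpholino libraries were also set against younger wild-type embryos. Against the wild type 1 hour earlier, 1 member was called (1.37%, against 8.75% of all features), and against that 2 hours earlier again 1 (1.37%, against 3.14%). Both times it was ndufa1, with -1.31 (edgeR adjusted p = 7.04e-05) and -1.33 (adjusted p = 4.97e-04). Against the wild type 2 hours earlier ndufb2 had -0.16, ndufs4 -0.05, ndufaf6 -0.14 and sdha 0.06 (edgeR adjusted p = 0.806, 0.945, 0.796 and 0.869). In contrast cox7c had 0.56 (adjusted p = 0.202) and atp5s 0.48 (adjusted p = 0.384, edgeR). These comparisons use fewer hours and share libraries with the one above, so they are given side by side only. Over 14 to 16 hpf at the same hour, ndufa1 at -1.43, ndufaf6 at -0.70 and sdha at 0.48 were called (4.11%, against 13.1% of all features; edgeR adjusted p = 1.87e-04, 0.0348 and 0.0298). Without replicate 3 many more were called: 10 higher and 6 lower against the wild type 1 hour earlier (21.9%, against 23.7% of all features), 9 higher and 3 lower against that 2 hours earlier (16.4%, against 22.8%), and 5 higher and 13 lower over 14 to 16 hpf (24.7%, against 29.4%). Of the 9 members called for the average, ndufa1, at -1.43 (edgeR adjusted p = 7.27e-06), and cox7c, at 0.28 (adjusted p = 8.63e-04), were then called against the wild type 2 hours earlier, while ndufb2 had -0.17, ndufs4 0.02, ndufaf6 -0.10 and sdha -0.09 (adjusted p = 0.205, 0.923, 0.672 and 0.654).

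In morpholino replicate 3 at 16 hpf most features lay outside both other morpholino libraries of that hour, and the members lay mostly above them. In TMM-scaled CPM all 73 members were higher there than in both other libraries, with a median log2 ratio of 1.21. Of all features 41.8% were higher than in both and 51.7% lower, with a median of -0.17. At 12, 13, 14 and 15 hpf 20, 17, 24 and 7 members were above both other libraries and 36, 44, 35 and 56 below both, with medians of -0.07, -0.14, -0.05 and -0.49. Of all features 40.2%, 41.2%, 42.5% and 40.8% were above both and 41.6%, 43.5%, 44.6% and 48.1% below both, with medians of -0.02, -0.02, -0.03 and -0.07. In CPM of library totals at 16 hpf 61 of 73 were above and 10 below, with a median of 0.55. Of all features 22.9% were above and 71.0% below on that scale, with a median of -0.71. That library had a TMM factor of 0.686 and held 37.1% of its counts in its 100 highest features, against 23.9% to 28.4% in the others. Short features were favoured in it: in 4 equal bins of effective length, from short to long, the median log2 ratio over all features was 0.15, 0.04, -0.13 and -0.67. The members are short, with 57 in the first bin, 12 in the second and 4 in the third, and their medians there were 1.32, 0.74 and 0.65. Over the 73 members, which share these libraries, the log2 ratio and log2 length had r = -0.43. Whether length, RNA quality or the embryos set these values was not tested.

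**Figure D5:**
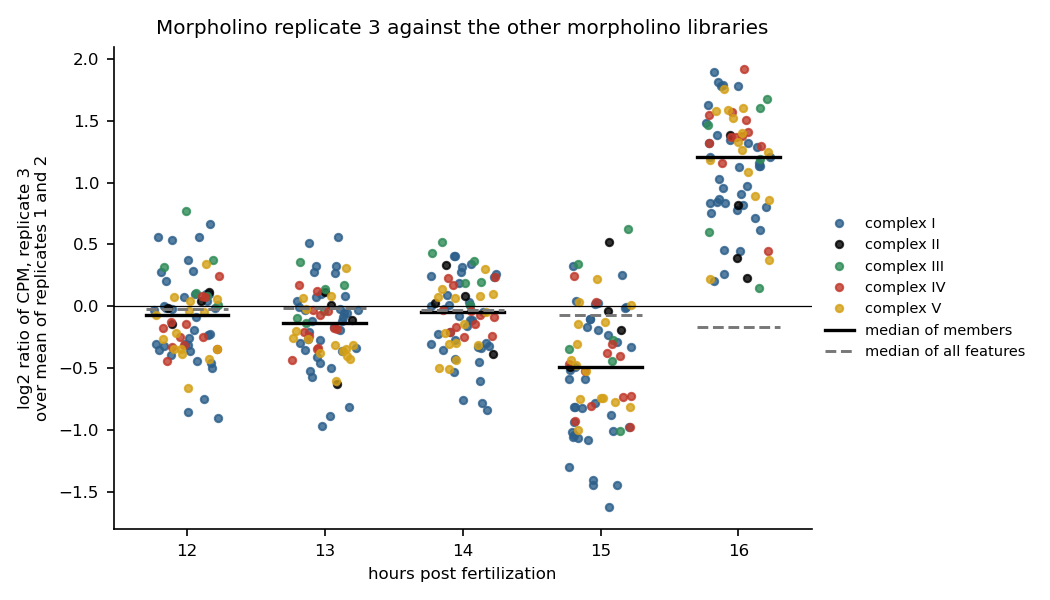
Log2 ratio of CPM in morpholino replicate 3 over the mean of replicates 1 and 2 at each hour (horizontal axis), with a point for each of the 73 members coloured by complex, a solid line at the members' median and a dashed line at the median of all features. At 16 hpf every member lies above 0 with a median of 1.21, and at 15 hpf the median is -0.49.

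All 13 mitochondrially encoded subunits were called higher in morpholino, with a median log2 change of 0.82, against 17.2% of all features higher (edgeR). Without replicate 3, 13 of 13 were called higher, with a median of 0.33, where 45.5% of all features were called either way. Their summed level was 22392 to 31855 TPM in morpholino replicates 1 and 2, 42112 to 49536 TPM in replicate 3 and 20069 to 24002 TPM in wild type. The ratio of summed nuclear to summed mitochondrial TPM was 0.382 to 0.556 in replicates 1 and 2, 0.189 to 0.392 in replicate 3 and 0.461 to 0.607 in wild type. Within complex I and with all libraries, replicate 3 included, nd5, a proton-pumping core subunit, rose by 0.87 ± 0.20 (SE, edgeR adjusted p = 0.00479), where ndufa1 fell.

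Other lists of mitochondrial and energy genes held calls in both directions (edgeR, average over the 5 hours, out of those tested), to be read against 17.2% higher and 17.4% lower of all features. Of 29 other assembly factors of the complexes 6 rose and 3 fell (median 0.01), of 17 genes for mobile carriers and electron entry 2 rose and 5 fell (median -0.11), and of 17 genes of the tricarboxylic acid cycle and pyruvate dehydrogenase 5 rose and 2 fell (median 0.10). Among them coa1, an assembly factor of complex IV, fell by 0.87 (adjusted p = 0.00606), coq8a, of ubiquinone synthesis, rose by 0.92 (adjusted p = 0.00205), and dlat, the acetyltransferase of pyruvate dehydrogenase, rose by 0.64 (adjusted p = 0.00951). Of 18 genes of mitochondrial protein import 6 rose and 1 fell (median 0.30), with timm17a, of the inner-membrane translocase, at 0.53 (adjusted p = 0.00849). Of 13 genes for metabolite carriers and cristae 3 rose and 2 fell (median 0.19), with chchd6, a cristae-junction protein, at 1.02 (adjusted p = 4.11e-05). Of 67 mitochondrial ribosomal proteins 4 rose and 0 fell (median 0.13), and without replicate 3, 13 rose and 8 fell (median 0.0060). Of 21 regulators of mitochondrial biogenesis and DNA expression 3 rose and 1 fell (median 0.06), and without replicate 3, 4 rose and 6 fell (median -0.02). Those that rose include nrf1, a transcription factor for many nuclear respiratory genes, by 0.56 (edgeR adjusted p = 0.00474), and tfb1m, the methyltransferase of mitochondrial ribosomal RNA, by 0.56 (adjusted p = 1.67e-04). Of 16 glycolytic genes 4 rose and 3 fell (median -0.15), with hk1 falling by 0.77 (edgeR adjusted p = 0.00292) and pgk1, phosphoglycerate kinase, rising by 0.85 (adjusted p = 0.00253). Without replicate 3 the numbers higher and lower were 5 and 6 for assembly factors, 2 and 6 for mobile carriers and electron entry, 2 and 4 for the tricarboxylic acid cycle, 10 and 3 for import, 4 and 2 for metabolite carriers and cristae, and 4 and 3 for glycolysis, where 45.5% of all features were called.

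Markers of muscle and of multiciliated and ion-transporting skin cells, types rich in mitochondria, were also measured, beside 17.2% of all features higher and 17.4% lower. Of 8 muscle markers 1 rose and 4 fell, with a summed level of 1205 to 5302 TPM in morpholino and 2305 to 7412 TPM in wild type, and 1205 to 3055 TPM in morpholino replicate 3 alone. Of 8 multiciliated cell and ionocyte markers 5 rose and 0 fell (edgeR), with 245 to 522 TPM in morpholino and 196 to 325 TPM in wild type. Without replicate 3, 2 muscle markers rose and 4 fell, and 6 of the other list rose and 0 fell, where 45.5% of all features were called either way. No marker was at 0 counts in any library. Their part in the members' values was not tested.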

How the data were processed

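The authors' deposited abundance tables hold, for each of the 25 libraries, estimated counts and TPM per transcript from kallisto, per the submitters' processing notes. Their deposited sleuth tables, 1 per hour, hold p-values, q-values and effects on the natural log scale. For neither tool is a version given in the sources used here, nor is the transcriptome. The deposited natural log effects ran as wild type minus morpholino (r = 0.996 to 0.9997 with the counts over the hours), and were turned round and put on the log2 scale. Between 27.0% and 31.4% of a library's estimated counts were not whole. Effective lengths were the same in all libraries.

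Counts were summed per symbol, with transcripts without a symbol kept singly, and rounded. Features were filtered by filterByExpr with the 10 groups of arm and hour, scaled by TMM and fitted in R 4.3.3 by edgeR 4.0.16 (quasi-likelihood) over all 25 libraries, with DESeq2 1.42.0 as an alternative. Benjamini-Hochberg adjustment ran over all 14151 features within each comparison, with a threshold of 0.05. The hourly differences were averaged with equal weight for the average effect, a slope is a linear contrast over the hours, and SE was taken as log2 change over square root of F. Sums over members have no test. The fit was tested on simulated data with known changes. Those libraries were independent with the same spread for all features, so libraries that deviate together or stand apart were not covered.

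After removing group means, same-numbered wild-type libraries correlated between hours at 0.275 to 0.453 in all 10 pairs of hours, so the number was taken to pair the wild-type course. In the morpholino arm the values were 0.288 to 0.655 for replicate 1, 0.0848 to 0.421 for replicate 2 and 0.367 to 0.755 for replicate 3. Between the arms they were 0.163 to 0.423 for replicate 1, over 0.1 at 5 of 5 hours, and -0.0866 to 0.168 for replicate 2, over 0.1 at 1 of 5. Removing group means makes the deviations of the 2 wild-type libraries of an hour equal and opposite. The values for replicates 1 and 2 are therefore not independent, and a low value for replicate 2 cannot show that the arms are unpaired. Whether the number pairs the arms was left undecided, and the main fit did not pair them.

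The members and all lists were chosen with earlier results of these data known. Named members are, for each complex, the 2 with the highest TPM, the 3 with the smallest p for the average effect and the 1 with the smallest p for the slope difference, then the 4 steepest wild-type slopes each way and the 2 assembly factors with the smallest p, and for other lists the 2 genes with the smallest p. Chosen after their values were seen were the isoform pairs, the members not tested, those called for the morpholino slope, uqcrc1, ndufv2, ndufs8, atp5mc1 and ndufaf1. Sequences are not shown, and the results of 1 gene are not reported here.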

Additional observations from a re-analysis of the deposited data

How the results depend on the processing

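The average changes of ndufa1, sdha, ndufb2, ndufaf6, ndufs4, uqcrfs1, cox7c, atp5f1b and atp5s kept their direction under every alternative taken singly. With 2 alternatives joined, without replicate 3 and against wild type 2 hours earlier, ndufs4 and sdha changed sign. Over single omissions of a library, members called higher numbered 3 to 15 and lower 3 to 9, rising in the morpholino arm 2 to 19 and falling 0 to 12, rising in wild type 0 to 8 and falling 0 to 3, and 0 to 1 at each hour. Higher and lower members numbered 3 and 12 with library totals, 17 and 11 without morpholino replicate 3, 0 and 1 against wild type 1 or 2 hours earlier, and 1 and 2 at 14 to 16 hpf only. The share of all features called was 32.5% with library totals, 45.5% without replicate 3, 8.75% and 3.14% against the earlier wild type, and 13.1% at 14 to 16 hpf. With a replicate block across arms 2 rose and 4 fell, where 27.2% of all features were called, and the calls of uqcrfs1, cox7c, atp5f1b and ndufs4 ended. In that fit 18 rose in the morpholino arm and 6 in wild type, and 2, 1 and 1 members were called at 13, 14 and 15 hpf. With a block per arm 7 rose and 7 fell (19.2%, against 51.7% of all features), and 16 rose in the morpholino arm and 6 in wild type. From 12 to 16 hpf 1, 3, 1, 3 and 2 members were called, against 12.6%, 21.8%, 12.6%, 14.3% and 13.3% of all features. Whether the replicate number pairs the arms could not be decided from the correlations, so the fit with a block across arms stands beside the main one. A block per arm takes the spread between replicate numbers out of the error, so its counts for the average and for single hours can be too high. The cause of the shifts with either block was not tested. Without replicate 3 the hours held 4, 13, 3, 2 and 3, the slopes of the morpholino arm 13 falling and those of wild type 28 rising and 6 falling. DESeq2 called 1 member at 13, 14 and 15 hpf, 17 rising in the morpholino arm and 3 in wild type. Library totals gave 1 at 14 and 15 hpf and 2 rising in wild type, a minimum of 1 CPM in 5 libraries gave 1 at 15 hpf, and single transcripts gave 0 falling in either arm. With CPM in place of TPM the summed differences were 0.0525, 0.0801, 0.29 and 0.14 for complexes I, II, III and V and 0.14 for all.

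Of members that were not called, some changed sign: with library totals atp5mc3 (-0.0271), atp5pf (-0.0656), sdhd (-0.126) and uqcr10 (-0.0438); without replicate 3 sdhd (-0.0104); with the replicate block, the sdhd average effect was -0.0075; and against earlier wild type cox5b.2 (-0.0055), ndufs6 (0.089), sdhb (0.12) and sdhc (0.0329 and 0.18). Over single omissions atp5pf ran from -0.0161 to 0.17 and sdhd from -0.0102 to 0.0853. Depth limits atp5s and uqcrh, which have few counts, and an hour taken alone compares 3 with 2 libraries. The order of the cox4i2, cox6a2 and ndufaf2 levels rests on counts of at most 12.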
